A study of Mus musculus with 10 samples.

Results

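The 10 genes described here, Irgm1, Irgm2, Igtp, Iigp1, Tgtp1, Tgtp2, Gbp2, Gbp3, Gbp7 and Gbp9, are interferon-inducible GTPases of the mouse, taken by name from the 53465 genes of a table of RNA-seq read counts. They were chosen by their levels in these libraries, since Irgm2 and Igtp were higher in both single nulls than in wild type, so single-null and wild-type levels are given below as a description, with no test. The libraries were made from erythroblasts, the nucleated precursors of red cells, collected with a Miltenyi bead kit from spleens of C57BL/6 mice 11 days after 5-FU, a drug that kills dividing blood progenitors and is followed by a burst of red cell production in the spleen. The genotypes were Nrf2/miR-144/451-/- (double-null, 3 libraries), Nrf2-/- (Nrf2-null, 3 libraries), miR-144/451-/- (miR-144/451-null, 2 libraries) and wild type (2 libraries), and all of them had received 5-FU. Nrf2, encoded by Nfe2l2, is a transcription factor of antioxidant genes, and miR-144/451 is a microRNA cluster of erythroid cells. The labels give neither the age of the mice, nor the design of the alleles, nor whether each library came from its own mouse. A p-value here therefore covers only how far libraries of a genotype differ, which may be technical.

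Immunity-related GTPases (IRG) and guanylate-binding proteins (GBP) are large cytosolic GTPases whose genes are switched on by interferons. Promoters of such genes often carry gamma-activated sites (GAS), through which interferon-gamma acts, and interferon-stimulated response elements (ISRE), through which type I interferon acts. The effector IRG proteins load onto the membrane of vacuoles that hold parasites such as Toxoplasma and break it, together with GBP proteins. The regulatory IRG proteins, Irgm1, Irgm2 and Igtp (also called Irgm3), sit on the cell's own membranes and keep the effectors inactive there. In mice, loss of Irgm1 impairs blood stem cells when interferon is present.

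Irgm1, Irgm2, Igtp, Tgtp1 and Tgtp2 lie on chromosome 11 and Gbp2, Gbp3 and Gbp7 on chromosome 3. RefSeq promoters of 300 bases, 250 before and 50 after the annotated start, were given for 8 of the 10 genes in build GRCm38.p6 (9 promoters, since Gbp3 has 2). The promoters of the 3 regulatory genes are shown because Igtp and Irgm2 had one pattern of levels over the genotypes and Irgm1 another. Capitals mark matches to the ISRE core GAAANNGAA or to the GAS motif TTCNNNGAA, searched on both strands. The stretches are chr11:58199306-58199605 on the plus strand for Igtp, chr11:58214727-58215026 on the plus strand for Irgm2 and chr11:48871371-48871670 on the minus strand for Irgm1.
Igtp: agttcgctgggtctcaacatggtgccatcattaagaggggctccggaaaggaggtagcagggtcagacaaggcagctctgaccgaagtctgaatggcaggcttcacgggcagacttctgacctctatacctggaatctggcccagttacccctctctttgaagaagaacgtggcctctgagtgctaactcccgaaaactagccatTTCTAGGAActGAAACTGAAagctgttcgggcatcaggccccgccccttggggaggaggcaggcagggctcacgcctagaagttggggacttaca
Irgm2: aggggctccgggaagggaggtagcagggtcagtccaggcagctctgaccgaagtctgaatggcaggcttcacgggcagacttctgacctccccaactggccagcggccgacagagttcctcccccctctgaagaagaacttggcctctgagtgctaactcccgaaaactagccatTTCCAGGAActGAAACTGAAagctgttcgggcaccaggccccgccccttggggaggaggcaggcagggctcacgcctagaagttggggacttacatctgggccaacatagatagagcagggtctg
Irgm1: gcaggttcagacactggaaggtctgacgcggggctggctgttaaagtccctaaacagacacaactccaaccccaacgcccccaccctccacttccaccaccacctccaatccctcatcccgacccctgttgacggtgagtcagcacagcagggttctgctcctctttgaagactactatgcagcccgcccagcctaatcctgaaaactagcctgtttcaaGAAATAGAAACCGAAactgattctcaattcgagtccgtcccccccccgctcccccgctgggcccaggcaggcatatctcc
The Igtp and Irgm2 promoters were 72.8% identical in a global alignment, against 49.7% for Igtp and Irgm1 and 47.8% for Irgm2 and Irgm1. In Igtp the GAS match begins 45 bases and the ISRE match 34 bases before the start. In Irgm2 they begin 75 and 64 bases before the start, with the same spacing between them. The Irgm1 promoter holds 2 overlapping ISRE matches, 30 and 24 bases before the start, and no GAS match in this window. An ISRE core match was found in at least 1 promoter of each of the 8 genes and a GAS match in 5 of them (Igtp, Irgm2, Tgtp1, Tgtp2 and Gbp7). Of all 32851 RefSeq promoters of this length, 8.6% hold the ISRE core, 8.3% the GAS motif and 1.07% both. The antioxidant response element core TGACNNNGC, a form of the motif bound by Nrf2 with small Maf proteins, was also searched. It was found in the Igtp promoter 194 bases and in the Irgm2 promoter 228 bases before the start, and in none of the other 7. Other forms of the motif were not searched. The Irgm1 promoter shown above holds tgagtcagc, which has G in place of the C of TGACNNNGC. The core TGACNNNGC is in 12.4% of all promoters. These matches describe letters in a window and were not tested as binding sites.

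The libraries held 13087827 to 15131036 counts on genes, of which globin genes took 7.07% to 12.17%. Mir144, read from its own gene entry, had 0 counts in every double-null and miR-144/451-null library, against 9 to 16 counts in the Nrf2-null and 12 and 17 counts in the wild-type libraries. Nfe2l2 had 49.2 to 62.7 CPM (read counts scaled to the normalised library total) in double-null, 46.1 to 55.6 CPM in Nrf2-null, 81.7 and 86.1 CPM in miR-144/451-null and 58.2 and 63.5 CPM in wild-type libraries, so the count over the whole gene does not check the Nrf2 label. Xist and Y-linked counts marked double-null library 3 and both wild-type libraries as female and the other 7 as male. Genotype and sex therefore cannot be told apart where either single null is set beside wild type.

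Deposited values that equal counts divided by gene length and library total, and are therefore read here as FPKM, allow levels of different genes to be compared. On that scale Igtp was the most abundant of the 10 genes in every genotype, at 91.1 ± 37.6 FPKM in double-null, 129 ± 11.0 FPKM in Nrf2-null, 150 ± 22.3 FPKM in miR-144/451-null and 35 ± 2.62 FPKM in wild-type libraries (SD, n = 3, 3, 2 and 2). Irgm2 had rank 2 in the 3 null genotypes, at 39.0 ± 16.5 FPKM in double-null, 68.3 ± 8.69 FPKM in Nrf2-null and 80.1 ± 2.25 FPKM in miR-144/451-null libraries, and rank 5 in wild type, at 16.2 ± 3.41 FPKM. Irgm1 had rank 3 in the null genotypes, at 9.55 ± 2.51 FPKM in double-null, 23.8 ± 3.35 FPKM in Nrf2-null and 21.9 ± 12.7 FPKM in miR-144/451-null libraries, and rank 2 in wild type, at 25.1 ± 0.713 FPKM. In wild type, ranks 3 to 5 (Gbp7 at 17.6 ± 1.12, Tgtp2 at 16.4 ± 0.381 and Irgm2 at 16.2 ± 3.41 FPKM) did not differ beyond their spread. Gbp9, Gbp3 and Gbp2 lay between 1.20 and 4.85 FPKM as genotype means, and Iigp1 and Tgtp1 between 0.146 and 1.08 FPKM, the 2 lowest places in every genotype. By CPM, which takes no account of gene length, Igtp had rank 1 in the null genotypes and rank 3 in wild type.

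Igtp and Irgm2 were low in wild type and high in all null genotypes, with the double-null libraries between the single nulls and wild type. Igtp had 143, 284 and 149 CPM in the double-null libraries, 250, 262 and 313 CPM in the Nrf2-null, 320 and 230 CPM in the miR-144/451-null and 60.1 and 79.6 CPM in the wild-type libraries. Every null library was above both wild-type libraries, and double-null 2 lay within the range of the single nulls while double-null 1 and 3 lay below it. Irgm2 had 109, 223 and 117 CPM in the double-null libraries, 239, 242 and 315 CPM in the Nrf2-null, 288 and 245 CPM in the miR-144/451-null and 45.6 and 73.3 CPM in the wild-type libraries. The same order held for Irgm2, except that double-null 2 was below every single-null library. As a description of the values that chose the genes, mean Irgm2 relative to wild type was 4.46-fold in Nrf2-null and 4.49-fold in miR-144/451-null libraries, and mean Igtp was 3.93-fold in both. Double-null 3, the female library among the nulls, had 149 CPM of Igtp and 117 CPM of Irgm2, above both wild-type libraries.

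Irgm1, the remaining regulatory gene, was lowest in the double-null libraries. It had 52.0, 75.5 and 46.0 CPM in the double-null, 159, 122 and 155 CPM in the Nrf2-null, 171 and 63.5 CPM in the miR-144/451-null and 128 and 159 CPM in the wild-type libraries. The double-null libraries were below all Nrf2-null and wild-type libraries, and miR-144/451-null 3 lay among them. Its log2 fold changes against wild type, again as a description, were 0.02 in Nrf2-null and -0.29 in miR-144/451-null.

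Tgtp1 and Tgtp2 are neighbouring genes for near-identical copies of an effector IRG (Irgb6), and 83.2% of the 31-base words in Tgtp1 transcripts also occur in Tgtp2, so how reads were divided between them is uncertain. Tgtp2 had 16.1, 25.8 and 11.5 CPM in the double-null, 55.8, 38.6 and 52.2 CPM in the Nrf2-null, 82.7 and 23.8 CPM in the miR-144/451-null and 43.9 and 50.6 CPM in the wild-type libraries. Tgtp1 had 0.743, 0.532 and 0.648 CPM in the double-null, 3.57, 2.11 and 3.37 CPM in the Nrf2-null, 1.46 and 1.58 CPM in the miR-144/451-null and 1.34 and 1.47 CPM in the wild-type libraries. For Tgtp1 the double-null libraries were below, and the Nrf2-null libraries above, all others, while for Tgtp2 only miR-144/451-null 3 reached into the double-null range. Their sum had 16.8, 26.4 and 12.2 CPM in the double-null, 59.3, 40.7 and 55.5 CPM in the Nrf2-null, 84.1 and 25.3 CPM in the miR-144/451-null and 45.2 and 52.0 CPM in the wild-type libraries, with the same overlap as Tgtp2. Iigp1, on chromosome 18, encodes Irga6, an effector that coats the vacuole of Toxoplasma. It had 0.223, 0.912 and 0.288 CPM in the double-null, 2.22, 1.28 and 7.27 CPM in the Nrf2-null, 0.876 and 2.05 CPM in the miR-144/451-null and 1.88 and 2.69 CPM in the wild-type libraries. The double-null libraries were below the Nrf2-null and wild-type libraries, and Nrf2-null 3 stood far above the rest.

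The GBP genes were lowest in the double-null libraries as well. Gbp7, whose product is known from mouse macrophages for its part in assembling the phagocyte oxidase, had 29.9, 38.9 and 28.7 CPM in the double-null, 109, 69.0 and 84.6 CPM in the Nrf2-null, 111 and 45.3 CPM in the miR-144/451-null and 92.8 and 101 CPM in the wild-type libraries. Every double-null library was below every other library. Gbp9, on chromosome 5, had 3.64, 10 and 5.62 CPM in the double-null, 21.3, 19.2 and 30.9 CPM in the Nrf2-null, 9.12 and 14.8 CPM in the miR-144/451-null and 21.7 and 27.8 CPM in the wild-type libraries. The miR-144/451-null libraries were here below all Nrf2-null and wild-type libraries and overlapped the double-null range. Gbp2, which coats Toxoplasma vacuoles, had 1.78, 5.93 and 2.52 CPM in the double-null, 6.66, 6.84 and 10.3 CPM in the Nrf2-null, 9.34 and 8.45 CPM in the miR-144/451-null and 5.16 and 10.2 CPM in the wild-type libraries. Gbp3 had 4.76, 7.07 and 2.67 CPM in the double-null, 13.7, 9.17 and 13.8 CPM in the Nrf2-null, 10.6 and 9.15 CPM in the miR-144/451-null and 11.0 and 12.2 CPM in the wild-type libraries. The double-null libraries were below all others for Gbp3, and for Gbp2 they overlapped wild type, where double-null 2 was above wild type 1.

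**Figure D1:**
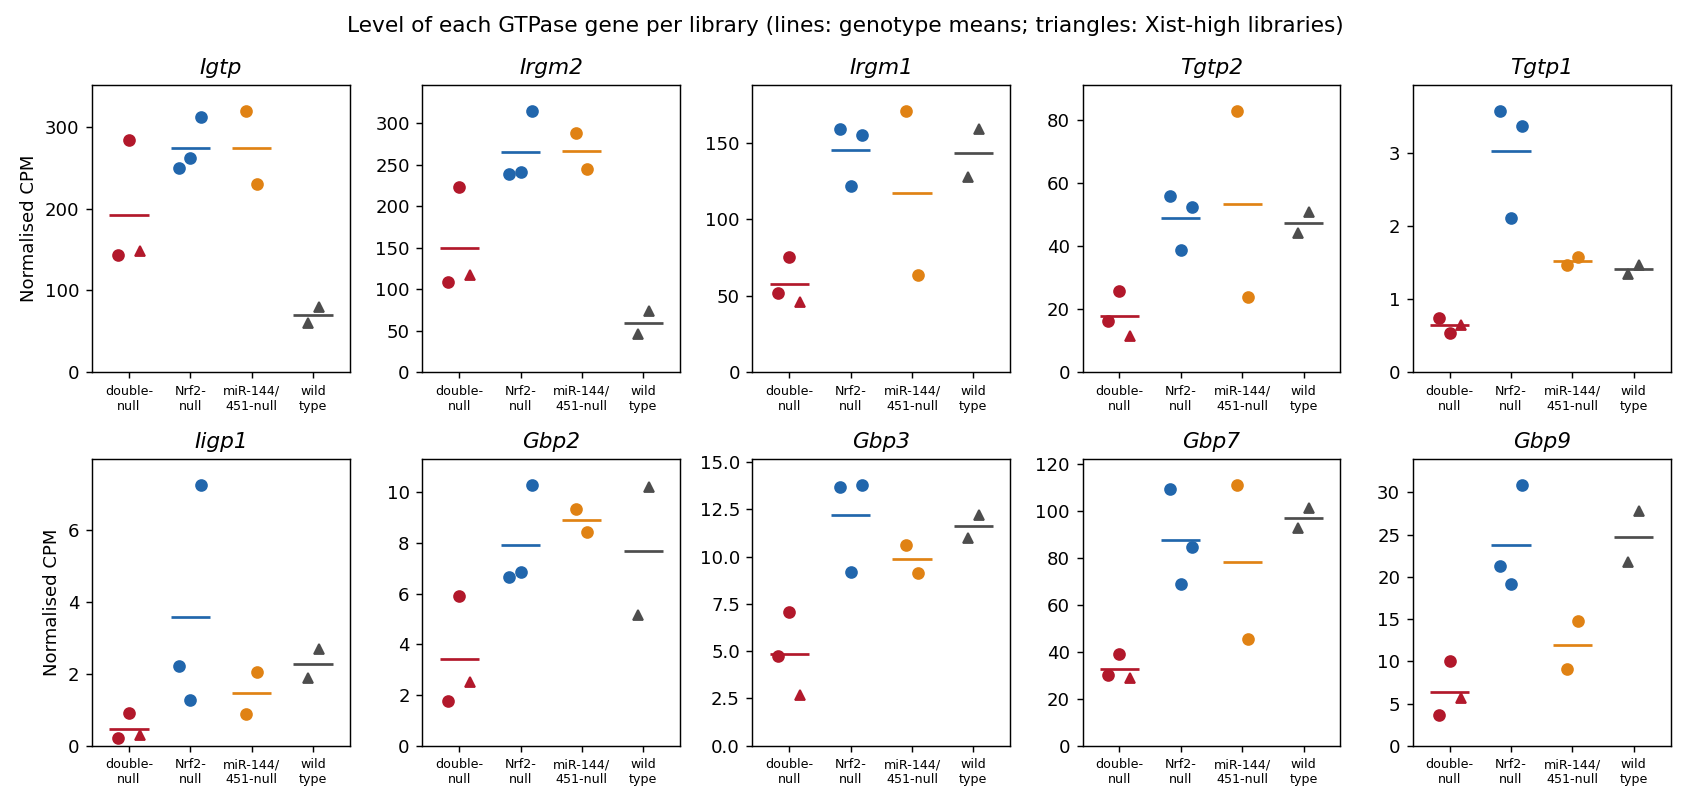
Normalised CPM (vertical axes, from 0) of each of the 10 genes in each library, by genotype; each point is 1 library, lines are genotype means and triangles are libraries with high Xist counts. Igtp and Irgm2 are low in wild type, at 45.6 to 79.6 CPM, while the other 8 genes have their lowest means in the double-null libraries.

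The double-null libraries were not used in picking the genes, so the 3 comparisons that involve them were tested, with edgeR's quasi-likelihood test and Benjamini-Hochberg adjustment over 14110 genes. The libraries they were set against, however, are those the choice was made on. For Irgm2 and Igtp the choice favours a rise against wild type and a fall against the single nulls. Their p-values are therefore not independent of the choice. The comparisons share the double-null libraries, so their results are not independent. All 10 genes passed the filter on low counts.

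Against Nrf2-null, which asks what cluster loss adds where Nrf2 is absent, 7 of the 10 genes fell in the double-null libraries and none rose, beside 12.9% of all tested genes that fell and 14.4% that rose. The median log2 fold change of the 10 was -1.38, beside 0.02 for all tested genes. Every double-null library was below every Nrf2-null library for 9 of the 10 genes (all but Igtp), beside 21.8% of all tested genes. Of the regulatory genes, Irgm1 fell, with a log2 fold change of -1.33 ± 0.33 (SE, adjusted p = 0.0165). Irgm2, at -0.82 ± 0.28 (adjusted p = 0.0538), and Igtp, at -0.52 ± 0.26 (adjusted p = 0.168), did not pass the threshold of 0.05. The effectors fell, with Tgtp1 at -2.22 ± 0.36 (adjusted p = 0.00146), Tgtp2 at -1.46 ± 0.44 (adjusted p = 0.0361) and Iigp1 at -2.90 ± 0.75 (adjusted p = 0.0163). Gbp9 fell by 1.89 ± 0.35 (adjusted p = 0.00362), Gbp7 by 1.43 ± 0.30 (adjusted p = 0.00759) and Gbp3 by 1.34 ± 0.31 (adjusted p = 0.0099) on the log2 scale, and Gbp2 had -1.21 ± 0.43 (adjusted p = 0.0559). Tgtp1, Gbp3 and Gbp9 passed the threshold under each of the 19 alternative settings, with adjusted p up to 0.015, 0.0496 and 0.0389. Gbp7 passed in 18, Irgm1 in 15, Iigp1 in 14 and Tgtp2 in 10 of them. The number of genes called was 4 without double-null 1, 4 without double-null 3, 4 with a term for sex and 3 among the 7 male libraries alone (2 double-null, 3 Nrf2-null). These counts have no share of all genes beside them. Whether the drops are particular to the 10 genes is therefore not shown.

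Against miR-144/451-null, which asks what Nrf2 loss adds where the cluster is absent, none of the 10 genes was called by edgeR after the filter on low counts, beside 0.0638% of all tested genes (0.0142% lower and 0.0496% higher). At an unadjusted p under 0.05, 8 of the 10 were lower and 0 higher, beside 5.87% of all tested genes lower and 4.81% higher. DESeq2 called 2 of the 10, beside 1.24% of all genes in its fit, and edgeR without the filter called 7, beside 2.74% of the 27087 genes in that fit. The median log2 fold change was -1.13, beside -0.02 for all tested genes, and single values ran between -0.52 ± 0.29 for Igtp (adjusted p = 0.541) and -1.63 ± 0.82 for Iigp1 (adjusted p = 0.507). Every double-null library was below both miR-144/451-null libraries for Irgm2, Tgtp1, Gbp2, Gbp3 and Gbp7, 5 of 10 genes, beside 12.4% of all tested genes. The miR-144/451-null pair was itself far apart for several genes, with 171 and 63.5 CPM of Irgm1 and 82.7 and 23.8 CPM of Tgtp2. The size of the drop in these genes depended on which library of the pair was kept. Without miR-144/451-null 3, the lower of the pair for them, the log2 fold change was -1.59 for Irgm1 and -2.25 for Tgtp2. Without miR-144/451-null 1 it was -0.14 for Irgm1 and -0.42 for Tgtp2.

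Against wild type, the 10 genes moved in both directions in the double-null libraries. Irgm2 rose by 1.34 ± 0.33 (SE, adjusted p = 0.0221) and Igtp by 1.46 ± 0.31 (adjusted p = 0.0115) on the log2 scale, 2 of 10 genes beside 8.26% of all tested genes that rose. A rise is the direction that the choice of these 2 genes favours. Irgm1, at -1.31 ± 0.36 (adjusted p = 0.0355), Gbp3, at -1.26 ± 0.34 (adjusted p = 0.0284), Gbp7, at -1.58 ± 0.33 (adjusted p = 0.0117), and Gbp9, at -1.94 ± 0.38 (adjusted p = 0.00794), fell, 4 of 10 genes beside 8.95% of all tested genes. Tgtp1 had -1.11 ± 0.41 (adjusted p = 0.0848), Tgtp2 -1.41 ± 0.47 (adjusted p = 0.0726), Iigp1 -2.25 ± 0.81 (adjusted p = 0.0813) and Gbp2 -1.16 ± 0.46 (adjusted p = 0.111). All double-null libraries were above both wild-type libraries for Irgm2 and Igtp, beside 24.9% of all tested genes, and below both for 7 of the other 8 genes (all but Gbp2), beside 25.3% of all tested genes. The calls rest on both wild-type libraries, since 1 gene was called without wild type 1 and none without wild type 3, where Irgm2 had 1.72 (adjusted p = 0.052) and Igtp 1.68 (adjusted p = 0.0565). With a term for sex, 1 of the 10 genes was called, and Irgm2 had 0.98 (adjusted p = 0.191) and Igtp 1.09 (adjusted p = 0.127). Over all alternatives the adjusted p ranged between 5.17e-11 and 0.191 for Irgm2 and between 6.51e-13 and 0.127 for Igtp. The lowest value of each gene came from edgeR without the filter on low counts, beside 0.0221 and 0.0115 in the main fit. For each of the 2 genes, 15 of 18 alternatives passed. Gbp9 passed in 16, Gbp7 in 15, Gbp3 in 12 and Irgm1 in 11 of the 18.

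**Figure D2:**
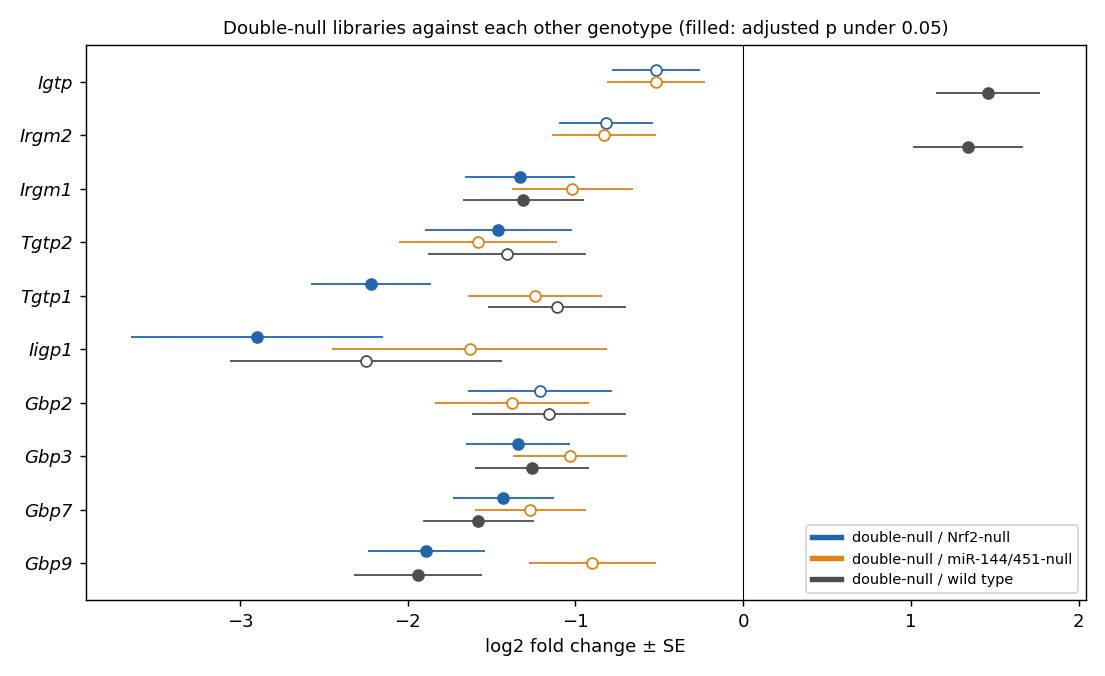
Log2 fold change (horizontal axis, bars are SE) of each of the 10 genes in double-null libraries against Nrf2-null (blue), miR-144/451-null (orange) and wild-type (grey) libraries; filled points passed an adjusted p of 0.05 in edgeR. Igtp and Irgm2 lie at 1.46 and 1.34 against wild type and below 0 against the single nulls, while the other 8 genes lie below 0 in all 3 comparisons.

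As a description, Irgm2 and Igtp thus followed one pattern over the libraries, from which the other 8 genes differed. Irgm2 and Igtp were chosen by their single-null and wild-type levels, so the split in those libraries is not independent of the choice. The other 8 were not all alike. Mean Tgtp1 in Nrf2-null was 2.15 times that in wild type, and Gbp9 was lower in both miR-144/451-null than in both wild-type libraries. Summed, Irgm2 and Igtp had 253, 507 and 266 CPM in the double-null, 488, 504 and 628 CPM in the Nrf2-null, 608 and 475 CPM in the miR-144/451-null and 106 and 153 CPM in the wild-type libraries. The other 8 genes summed to 109, 165 and 98.0 CPM in the double-null, 370, 268 and 358 CPM in the Nrf2-null, 397 and 169 CPM in the miR-144/451-null and 306 and 365 CPM in the wild-type libraries. Wild type was thus lowest in the first sum and within the upper range of the second. The ratio of Igtp to Irgm1 read counts was 2.75, 3.75 and 3.23 in the double-null, 1.58, 2.14 and 2.01 in the Nrf2-null, 1.87 and 3.61 in the miR-144/451-null and 0.470 and 0.502 in the wild-type libraries. Irgm2 counts exceeded those of Irgm1 in every null library, by ratios of 1.51 to 3.86, and were below them in both wild-type libraries, at 0.356 and 0.462. The ratio of Igtp to Irgm2 lay between 0.936 and 1.32 over all 10 libraries. That of Gbp7 to Irgm1, the most correlated pair of the other 8, lay between 0.515 and 0.725. Ratios among the other 8 were not all so steady. Iigp1 had 3 counts beside 700 of Irgm1 in double-null 1, and 95 beside 2029 in Nrf2-null 3.

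**Figure D3:**
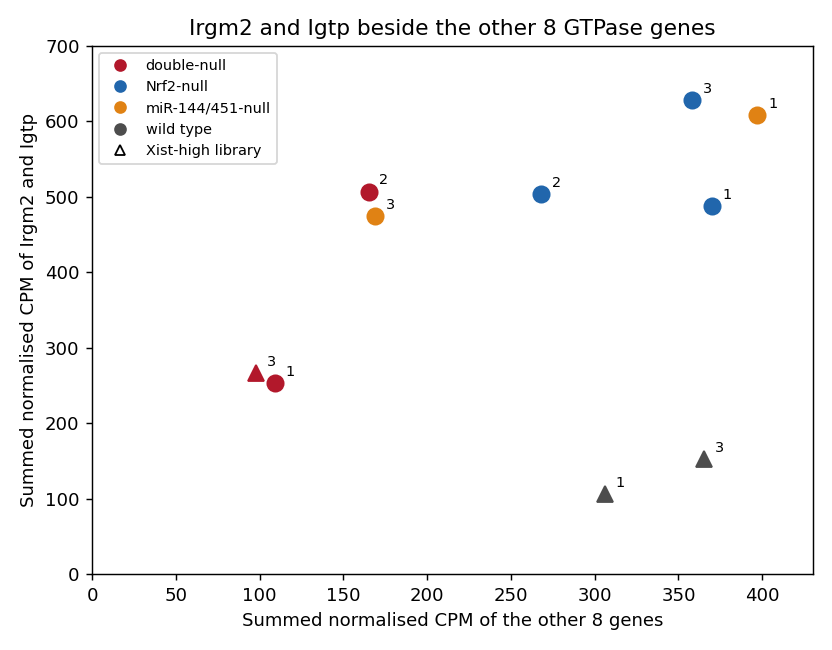
Summed normalised CPM of Irgm2 and Igtp (vertical axis) against that of the other 8 genes (horizontal axis), 1 point per library with its replicate number; triangles are libraries with high Xist counts. The wild-type libraries lie low on the vertical axis, at 106 and 153 CPM, and far right, while the double-null libraries lie furthest left, at 98.0 to 165 CPM. Irgm2 and Igtp were chosen by their single-null and wild-type levels.

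As a description over the 10 libraries, which share genotype groups and depth, the Pearson correlation of log2 CPM was 0.99 between Irgm2 and Igtp. It was 0.62 to 0.98 among the other 8 genes, highest for Irgm1 with Gbp7 (0.98) and Irgm1 with Tgtp2 (0.97). Between either of Irgm2 and Igtp and any of the other 8 genes it was -0.07 to 0.39. These values include the libraries on which Irgm2 and Igtp were chosen. Annotated exons of Igtp and Irgm2 overlap by 162 bases on the same strand (8.0% of Igtp exon bases and 4.4% of those of Irgm2), and 15.9% of the 31-base words of Igtp also occur in Irgm2. Reads from that stretch could have been counted for either gene or for neither.

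The 5 genes whose log2 CPM was most correlated with the mean of Irgm2 and Igtp, among 8256 compared over 10 libraries, were Ddx3y (0.85), Eif2s3y (0.83), Kdm5d (0.83), Uty (0.82) and Ppp1ca (0.78). The first 4 are Y-linked and near or at 0 CPM in the 3 female libraries, double-null 3 and both wild types. Ppp1ca, a catalytic subunit of protein phosphatase on chromosome 19, had 28.3 ± 2.57 CPM in double-null, 39.9 ± 4.43 CPM in Nrf2-null, 29.8 ± 0.708 CPM in miR-144/451-null and 21 ± 6.06 CPM in wild-type libraries (SD). With a term for sex in the fit, the descriptive log2 fold changes against wild type were 1.66 for Irgm2 and 1.46 for Igtp in each single null. Double-null is the one genotype with both sexes, so this term rests on 1 female library, double-null 3.

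The nearest protein-coding neighbours were Mrpl22, Gemin5 and Cnot8 on the Igtp side and 4930438A08Rik, Zfp692 and Zfp672 on the Irgm2 side. Gm12250, between Mrpl22 and Igtp, is a processed pseudogene in GENCODE M21 and coding in RefSeq, and was added after its values were seen. Its descriptive log2 fold changes against wild type, 1.76 in Nrf2-null and 1.73 in miR-144/451-null, were near those of Igtp and Irgm2. For the 6 coding neighbours, descriptive log2 fold changes in the single nulls against wild type lay between -0.34 and 0.72, against 1.98 to 2.17 for Igtp and Irgm2. In the tested comparisons Gemin5 was higher in double-null than in Nrf2-null libraries by 0.66 (adjusted p = 0.0212), at 30.5 ± 3.82 against 19.3 ± 2.84 CPM. Cnot8 was higher in double-null than in wild-type libraries by 0.58 (adjusted p = 0.0169), at 58.5 ± 6.72 against 39.1 ± 1.38 CPM, and the other 4 neighbours were not called in any comparison.

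The wider interferon-related genes were described by lists. Beside each list count below, 12.9% of all tested genes fell and 14.4% rose against Nrf2-null. Against wild type 8.95% of all tested genes fell and 8.26% rose. Counts without a library, with a term for sex or among male libraries have no such share beside them. Of the other IRG, GBP, very large inducible and Mx GTPases, 15 of 23 listed were tested, and 7 fell and none rose in double-null against Nrf2-null libraries (median log2 fold change -1.19). Against wild type 8 of them fell and none rose (median -1.59). The count against Nrf2-null was 2 without double-null 1, 1 without double-null 3, 3 without Nrf2-null 1, 1 without Nrf2-null 3, 1 with a term for sex and 2 among the male libraries. Against wild type it was 4 without double-null 3, 5 without wild type 1, 3 without wild type 3 and 0 with a term for sex. Ifi47, an effector IRG (Irgd), had 18.3 ± 2.75 CPM in double-null against 30.6 ± 3.75 CPM in Nrf2-null libraries (log2 fold change -0.75 ± 0.20, adjusted p = 0.0166). Gbp5, which takes part in inflammasome assembly, had 2.75 ± 0.934 against 6.29 ± 0.473 CPM (-1.19 ± 0.35, adjusted p = 0.0265). The antiviral GTPase Mx1 had 0.996 ± 0.846 against 4.26 ± 2.62 CPM (-2.09 ± 0.61, adjusted p = 0.0281). The predicted gene 9930111J21Rik2 had 3.92 ± 1.40 against 10.6 ± 1.56 CPM (-1.43 ± 0.34, adjusted p = 0.0111).

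Among receptors, kinases, transcription factors and feedback inhibitors of interferon signalling, 10 of 23 tested genes fell and 1 rose against Nrf2-null (median -0.46), and 6 fell and 1 rose against wild type (median -0.31). Beside these 11 and 7 calls, alternative fits made 7 against Nrf2-null without double-null 3, 7 with a term for sex and 5 among the male libraries, and against wild type 3 without double-null 3, 3 without wild type 1, 1 without wild type 3 and 1 with a term for sex. Stat2, part of the type I interferon factor, had 40.8 ± 11.1 CPM in double-null against 129 ± 27.4 CPM in Nrf2-null libraries (-1.66 ± 0.29, adjusted p = 0.00297). The feedback inhibitor Usp18 had 7.16 ± 3.21 against 57.9 ± 9.43 CPM (-3.02 ± 0.53, adjusted p = 0.0034). Nlrc5, the activator of class I antigen genes, had 15.3 ± 7.82 against 47.0 ± 6.46 CPM (-1.62 ± 0.33, adjusted p = 0.0057). Stat3, which carries signals of several cytokines, was the gene that rose, to 77.9 ± 11.9 CPM in double-null against 44.2 ± 2.59 CPM in Nrf2-null libraries (0.82 ± 0.14, adjusted p = 0.0015).

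Of 25 tested antiviral interferon-stimulated genes, 17 fell and none rose against Nrf2-null (median -1.40), and 14 fell and none rose against wild type (median -1.63). The antiviral genes called numbered 11 against Nrf2-null without double-null 1 and 6 among the male libraries. Against wild type, edgeR called 6 without double-null 1, 4 without double-null 3, 0 without wild type 1, 4 without wild type 3 and 0 with a term for sex. Rtp4 had 1.87 ± 0.891 CPM in double-null against 40.5 ± 21.1 CPM in Nrf2-null libraries (-4.43 ± 0.80, adjusted p = 0.00433), and the RNA sensor regulator Dhx58 had 4.78 ± 0.941 against 28.4 ± 6.27 CPM (-2.57 ± 0.40, adjusted p = 0.00157). Of 17 genes of antigen processing, 8 fell and 2 rose against Nrf2-null (median -0.77), and 6 fell and 1 rose against wild type (median -0.62). Called antigen processing genes numbered 6 against Nrf2-null among the male libraries, and 4 without wild type 1, 1 without wild type 3 and 1 with a term for sex against wild type. The peptide transporter subunit Tap1 had 18.8 ± 4.54 CPM in double-null against 72.3 ± 24.7 CPM in Nrf2-null libraries (-1.94 ± 0.29, adjusted p = 0.0011), whereas the proteasome activator Psme1 rose, with 67.0 ± 1.88 against 44.6 ± 2.26 CPM (0.59 ± 0.11, adjusted p = 0.00308).

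The Atg8 conjugation machinery and vacuole partners, with which the GTPases are targeted to vacuoles, moved the other way for most called genes. Of 19 tested, 2 fell and 8 rose against Nrf2-null (median 0.36), and 1 fell and 8 rose against wild type (median 0.51). Against Nrf2-null 6 were called without double-null 2 and 5 without Nrf2-null 1, and against wild type 3 to 5 without double-null 1 or 2, Nrf2-null 2 or either wild-type library. The Atg8 family member Gabarapl1 had 177 ± 15.4 CPM in double-null against 61.8 ± 7.29 CPM in Nrf2-null libraries (1.52 ± 0.20, adjusted p = 0.000419). The ubiquitin ligase Traf6 had 44.6 ± 8.22 against 23.7 ± 1.19 CPM (0.91 ± 0.16, adjusted p = 0.00224), and Atg5, part of the Atg8 conjugation complex, had 17.2 ± 1.48 against 10.4 ± 0.533 CPM (0.72 ± 0.16, adjusted p = 0.0063). The cytosolic antibody receptor Trim21 was one that fell, with 10.4 ± 3.53 against 31.6 ± 2.94 CPM (-1.61 ± 0.28, adjusted p = 0.00198). In none of these 5 lists was a gene called by edgeR against miR-144/451-null, beside 0.0638% of all tested genes. There DESeq2 called 8 in all, and edgeR without the filter 44, beside 1.24% and 2.74% of all genes in these fits. At an unadjusted p under 0.05 in that comparison, 5 of the other GTPase genes were lower and 0 higher, 6 signalling genes lower and 2 higher, 8 antigen processing genes lower and 1 higher, 14 antiviral genes lower and 1 higher, and 2 Atg8 and vacuole partners lower and 8 higher. Of all tested genes, 5.87% were lower and 4.81% higher at that unadjusted threshold. Among male libraries alone, 27 genes of the 5 lists were called against Nrf2-null, beside 55 with all libraries. Against wild type 45 were called with all libraries, 27 without double-null 1, 22 without double-null 3, 15 without wild type 1, 14 without wild type 3 and 5 with a term for sex.

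**Figure D4:**
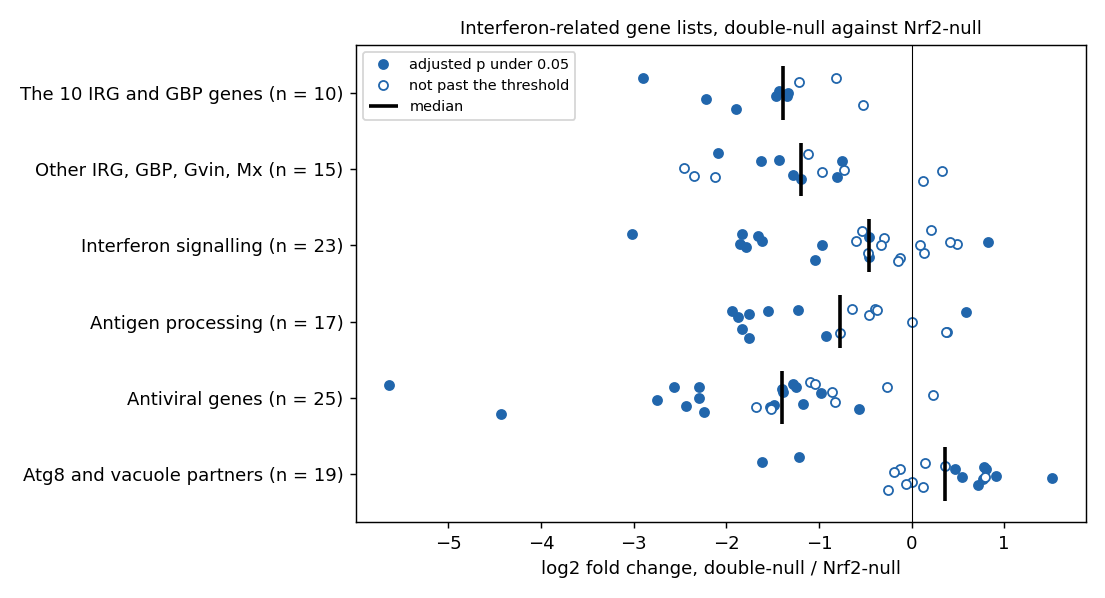
Log2 fold change of double-null against Nrf2-null libraries (horizontal axis) for the 10 IRG and GBP genes and 5 lists of interferon-related genes, 1 point per tested gene, filled where the adjusted p passed 0.05 and with a bar at the median. Medians lie between -1.40 and -0.46 for 5 of the 6 rows and at 0.36 for the Atg8 and vacuole partners.

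The libraries also held transcripts of other spleen cells, and in bulk RNA fewer cells of a type and less RNA per cell cannot be told apart. Erythroid markers (12 genes) summed to 132000 to 162000 CPM in double-null, 115000 to 149000 CPM in Nrf2-null, 92900 to 106000 CPM in miR-144/451-null and 97300 to 136000 CPM in wild-type libraries, the highest sum of any marker list in each library. Gene by gene, 4 of the 12 were called lower and 0 higher in double-null against Nrf2-null libraries (median -0.21). Of all tested genes, 12.9% were called lower and 14.4% higher in that comparison. B cell markers (11 genes) summed to 357 to 787 CPM in double-null, 978 to 1120 CPM in Nrf2-null, 723 to 981 CPM in miR-144/451-null and 1290 to 1640 CPM in wild-type libraries. Of these markers, 10 of 11 fell in double-null against both Nrf2-null and wild type, beside 12.9% and 8.95% of all tested genes. Double-null 2, the double-null library highest for 9 of the 10 GTPase genes, was also the highest of its genotype in B cell markers, at 787 CPM, and in erythroid, T cell, NK cell, dendritic and endothelial markers, 6 of the 8 lists. Macrophage markers (12 genes) summed to 96.9 to 434 CPM in double-null, 366 to 1210 CPM in Nrf2-null, 163 to 301 CPM in miR-144/451-null and 214 and 221 CPM in wild-type libraries, with 0 of 12 called against Nrf2-null (median -1.38). Nrf2-null 3, which stood out for Iigp1, had the highest sum of macrophage markers, 1210 CPM. It was the highest of its genotype in 7 of the 8 lists, all but neutrophil markers. In B cell markers its lead over Nrf2-null 1 was within rounding, both at 1120 CPM. T cell markers (9 genes) summed to 16.4 to 79.5 CPM in double-null, 75.2 to 98.8 CPM in Nrf2-null, 41.4 to 68.0 CPM in miR-144/451-null and 77.5 to 121 CPM in wild-type libraries. NK cell markers (8 genes) summed to 8.72 to 31.8 CPM in double-null, 27.7 to 41.5 CPM in Nrf2-null, 15.9 to 27.2 CPM in miR-144/451-null and 20.8 to 24.2 CPM in wild-type libraries. Dendritic cell markers (7 genes) summed to 23.4 to 32.1 CPM in double-null, 31.9 to 41.0 CPM in Nrf2-null, 37.6 to 39.5 CPM in miR-144/451-null and 21.7 to 45.8 CPM in wild-type libraries. Neutrophil markers (9 genes) summed to 1090 to 1190 CPM in double-null, 175 to 1150 CPM in Nrf2-null, 356 to 946 CPM in miR-144/451-null and 424 to 467 CPM in wild-type libraries, with 0 of 9 called against Nrf2-null (median 0.80). Endothelial and stromal markers (8 genes) summed to 3.65 to 18.4 CPM over all libraries. No marker of any list was at 0 in every library. The part of these cells in the GTPase levels was not tested.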

How the data were processed

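Whole-gene read counts of 10 libraries and per-library FPKM values were used as deposited. Raw count values per gene were deposited by the authors in 1 table, with reads aligned to mm9 and with HISAT2 2.1.0, Bowtie2 2.2.3, TopHat2 and CASAVA named per the submitters' processing notes; no source used here names the counter or its strand setting. The deposited per-library values of 27087 genes were read as FPKM, a unit inferred from the values: they equal the count per gene length and library total, within 0.1% for all 196970 values compared. All columns of the count table were used. Names came from GENCODE M21, which matched 99.6% of IDs, and promoters from RefSeq (GRCm38.p6). No coordinates were converted between builds.

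Counts were scaled with TMM (factors 0.919 to 1.182), filtered with edgeR's filterByExpr by genotype, and fitted with edgeR 4.0.16 in R 4.3.3 (robust quasi-likelihood, 1 model of genotype over the 10 libraries, 6 residual degrees of freedom). Tests were two-sided, with Benjamini-Hochberg adjustment over 14110 genes and a threshold of 0.05. The fitting code was tested on simulated counts. DESeq2 1.42.0, other scalings, no filter, the compared genotypes alone, a replicate block, a sex term, globin removal and leaving out each library were alternatives; a fit on the male libraries was added after the results were seen. The members and lists were chosen with earlier results of these data known. Named were all members, up to 4 genes of each list with the smallest p against Nrf2-null, the 5 genes of at least 5 CPM most correlated with Irgm2 and Igtp, and the 3 nearest coding genes on each side; Gm12250 was added after its values were seen. Libraries of a genotype differed beyond sampling noise and each was counted as 1 replicate. That spread does not show that they came from separate mice. Precision is limited by 2 or 3 libraries per genotype.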

Additional observations from a re-analysis of the deposited data

Results flagged for a closer look

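For Irgm2, all libraries lay on opposite sides in pairs of comparisons of the same loss. The difference itself was not tested because the single-null and wild-type values chose the gene. This pattern has no share of all genes beside it, so whether it is particular to Irgm2 is not shown. Separation of all libraries within a comparison was common. Every double-null library was below every Nrf2-null library for 21.8% of all tested genes, and below every miR-144/451-null library for 12.4%. For loss of the cluster, mean CPM in double-null libraries was 0.565 times that in Nrf2-null libraries (edgeR, adjusted p = 0.0538, not past the threshold), and mean CPM in miR-144/451-null libraries was 4.49 times that in wild-type libraries. For loss of Nrf2, the double-null mean was 0.562 times the miR-144/451-null mean (adjusted p = 0.406, not past the threshold), and the Nrf2-null mean was 4.46 times the wild-type mean.

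Tgtp1 was flagged for loss of Nrf2, where the double-null mean was 0.421 times the miR-144/451-null mean (edgeR, adjusted p = 0.343, not past the threshold under any of 19 alternatives) and the Nrf2-null mean was 2.15 times the wild-type mean. The difference between these comparisons was likewise not tested. This flag too has no share of all genes beside it, so whether it is particular to Tgtp1 is not shown. Tgtp1 reads may be shared with Tgtp2. Groups of 2 or 3 libraries are too small for a search for single outlying libraries.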

How the results depend on the processing

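None of the 10 genes turned the direction of its log2 fold change in a tested comparison under any alternative. For the lists only the number of genes called was compared between settings, not the direction. With all 10 libraries, 7 of the 10 genes were called against Nrf2-null, 0 against miR-144/451-null and 6 against wild type, and 55, 0 and 45 genes of the 5 pathway lists. A sex term gave 4 members against Nrf2-null, 1 member against wild type and 5 list genes against wild type. The 7 male libraries alone, an alternative added after seeing the data, gave 3 members and 27 list genes against Nrf2-null. Against miR-144/451-null, no filter on low counts gave 7 members and 44 list genes, and DESeq2 gave 2 and 8. Leaving out 1 library at a time gave 4 to 10 members against Nrf2-null, 0 to 3 against miR-144/451-null and 0 to 9 against wild type, and 37 to 63, 0 to 9 and 14 to 57 list genes. The share of all genes called was given above only for DESeq2 and for no filter, against miR-144/451-null. Whether the other changes are particular to these genes is therefore not shown. The cause of these changes was not tested.

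Deviations from genotype means of same-numbered double-null and Nrf2-null libraries correlated at 0, -0.06 and -0.03. Over all 13 same-numbered pairs of genotypes the values ran between -0.11 and 0.29, with 1 above 0.1 (double-null 1 and miR-144/451-null 1). Deviations within a genotype sum to 0, so these values are not independent and cannot exclude a pairing by replicate number. With the replicate number as a block, 8 members were called against Nrf2-null, 0 against miR-144/451-null and 4 against wild type, and 53, 0 and 34 list genes. Precision is limited by 2 or 3 libraries per genotype and, for low members such as Iigp1 and Tgtp1, also by depth.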

Other observations

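Gm12250, which RefSeq names as coding with the synonym Irgb10 and GENCODE M21 as a processed pseudogene, lies between Mrpl22 and Igtp and was chosen after its values were seen. It had 0.297, 0.988 and 0.721 CPM in the double-null, 3.30, 2.63 and 7.73 CPM in the Nrf2-null, 4.38 and 4.52 CPM in the miR-144/451-null and 0.911 and 1.79 CPM in the wild-type libraries. Both single nulls were above wild type in every library, as for Irgm2 and Igtp, but the double-null libraries overlapped the wild-type range. The log2 fold change of double-null against Nrf2-null was -2.75 (edgeR, adjusted p = 0.00381), against miR-144/451-null -2.72 (adjusted p = 0.175) and against wild type -0.99 (adjusted p = 0.294).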
